A study of Mus musculus with 23 samples.

Results

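The regions described here lie at genes of fibroblast growth factor (FGF) signalling, of the RAS and ERK kinase cascade it drives, and of heparan sulfate synthesis. They were taken from a table of 16958 regions bound by NR5A2, an orphan nuclear receptor and transcription factor, and were picked by their position near listed genes. A region was kept when the nearest protein-coding gene span to its midpoint was 1 of 42 listed genes and lay within 50 kb. This gave 70 regions at 28 of the 42 genes. The other 14 genes had none: Fgf2, Fgfr3, Frs3, Nras, Map2k2, Rasa1, Spry1, Dusp6, Etv1, Etv4, Ext2, Ndst2, Sdc1 and Sdc4. For the ERK phosphatase gene Dusp6 the closest bound region of the table was 331 kb away, and for the ETS factor gene Etv1 678 kb, whereas for the kinase gene Map2k2 a region lay 3.67 kb away but nearer to Creb3l3.

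Open chromatin was profiled in 8-cell mouse embryos with ATAC-seq, an assay in which an enzyme tags exposed DNA with adapters for sequencing. The maternal-zygotic (mz) series held 8 single embryos labelled mz_NrHet and 13 labelled mz_NrKO, assayed without culture and all carrying 1 date label. In the inducible series (iNrKO) embryos were recovered 30 h after hCG, early in the 2-cell stage, and grown for 45 h. There 1 pool stayed without tamoxifen (minus_Tam_Nrpp) and 1 pool had 750 nM 4-hydroxytamoxifen over the first 24 h (plus_Tam_NrKO), both with a later date. The labels do not say whether mz_NrHet embryos had maternal Nr5a2, what drives the inducible deletion, or the strain, and no treated pool without the deletion was analysed here, so drug and deletion cannot be told apart.

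Each group has 1 merged value per region, so the spread between embryos is unknown, there is no replicate check, and tests compare merged libraries rather than conditions. The values are in RPKM, by name reads scaled to length and depth, but were whole multiples of 1 step per column whatever the length of the region. A single read was worth 0.587 RPKM in mz_NrHet, 0.359 in mz_NrKO, 0.163 without and 0.170 with tamoxifen. Reads over all regions totalled from 99826 to 285671 per column, and the 70 regions held 373, 357, 1233 and 658 reads in that order. All intervals below are exact 95% intervals of a ratio and cover counting error only. In whole embryos, fewer cells with an open region and a region less open in each cell cannot be told apart. The table holds no RNA, so the embryo labels were not checked against marker genes. Of 20 genes that mark granulosa and cumulus cells, the cells around the oocyte, 7 had regions, 11 in all. Their summed RPKM was 47.6 in heterozygotes, 37.3 in mz knockouts, 34.8 in the untreated and 29.3 in the treated pool, and their part in any result here was not tested.

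FGF ligands bind receptor tyrosine kinases together with heparan sulfate chains on the cell surface. The activated receptor recruits adaptors that load RAS with GTP, and RAS starts the RAF, MEK and ERK kinase chain. ERK activity induces its own inhibitors, among them the Sprouty and Spred proteins and dual-specificity phosphatases, and ETS transcription factors. In the mouse blastocyst, FGF4 from inner cells directs their neighbours toward primitive endoderm, after the stage studied here.

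None of the regions that could be placed was at a start site. For the 21 genes with regions that also have entries in a RefSeq promoter table (GRCm38.p6), 60 of the 70 regions could be placed, at a median of 25.4 kb from the nearest start site. None of the 60 lay within 1 kb, and the closest was 1.50 kb upstream of Spred1. Start-site distances were not computed over all regions, so this is not shown to be particular to these genes. The sequence of the regions themselves was not used here, but the 250 bases before each start site were searched on both strands. The long Nr5a2 motifs TCAAGGTCA and TCAAGGCCA were in 0 of 39 such windows at 34 of the listed genes, against 0.387% and 0.511% of 32851 windows of all genes. The shorter AAGGTCA, which the first of these contains, was also in 0 of 39, against 4.08% of all windows. The core AGGTCA, which lies within AAGGTCA and was added after the other searches, was in 1 of 39 (2.56%), against 14.0% of all windows. A match or its absence in these windows is a description of letters only. The windows are shown for Hs6st1, whose region had the largest drop in RPKM of the set in both series, for Fgf4, the ligand gene of the early embryo, and for Sdc4, the syndecan gene with the 1 match, which starts 196 bases before the start site and is in capitals.

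Hs6st1, chr1:36068150-36068399, plus strand: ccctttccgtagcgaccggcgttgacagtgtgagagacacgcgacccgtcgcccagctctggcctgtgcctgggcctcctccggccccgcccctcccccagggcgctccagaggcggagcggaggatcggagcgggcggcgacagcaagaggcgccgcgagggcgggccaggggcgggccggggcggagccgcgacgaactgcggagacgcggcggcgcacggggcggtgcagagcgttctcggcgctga

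Fgf4, chr7:144861136-144861385, plus strand: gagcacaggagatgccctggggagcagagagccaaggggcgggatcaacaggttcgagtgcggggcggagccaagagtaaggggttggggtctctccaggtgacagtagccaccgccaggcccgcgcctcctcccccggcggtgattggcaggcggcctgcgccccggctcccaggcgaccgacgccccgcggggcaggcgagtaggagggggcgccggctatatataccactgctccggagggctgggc

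Sdc4, chr2:164443189-164443438, minus strand: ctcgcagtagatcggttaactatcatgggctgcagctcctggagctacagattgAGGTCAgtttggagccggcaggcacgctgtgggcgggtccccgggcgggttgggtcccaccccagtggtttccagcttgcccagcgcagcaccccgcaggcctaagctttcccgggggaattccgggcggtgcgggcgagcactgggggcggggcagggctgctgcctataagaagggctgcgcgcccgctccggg

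Of the 70 regions, 38 lay inside the span of their gene, where the table used cannot tell exons from introns, and 32 outside it. By the authors' classes 36 were accessible and 34 were not. Inside a gene span lay 54.3% of the 70, against 50.9% of all regions, and 51.4% were accessible, against 48.5%. NR5A2 binding, as CUT&RUN signal of an earlier study, ran from 1.10 to 18.0 RPKM with a median of 4.43, against a median of 4.15 over all regions. The authors had moved the binding summit onto an Nr5a2 motif in 62 of the 70 regions, and in 89.3% of all regions. In the 36 accessible regions the recentred binding summit, moved or not, lay a median of 224 bp from the ATAC-seq summit, against 108 bp over all 8228 accessible regions, and 8 of the 36 (22.2%) against 27.4% lay within 50 bp. These contrasts were not tested.

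Near the distance limit stood 2 regions of Etv5 and Hs6st1 at 48.5 and 47.9 kb. Just outside it were 2 further regions upstream of Hs6st1, at 54.0 and 55.0 kb. The Etv5 region had 0.587 RPKM in heterozygotes, 0 in mz knockouts, 2.29 in the untreated and 0.510 in the treated pool. The Hs6st1 region inside the limit had 4.70, 1.43, 3.43 and 1.53 RPKM in that order. The closer of the 2 regions outside had 5.29, 1.43, 4.08 and 2.55 RPKM, and the farther 3.52, 0.717, 2.61 and 1.02 RPKM.

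As a set, the regions were less accessible in both knockouts. Their mean went from 3.13 RPKM in heterozygotes to 1.83 RPKM in mz knockouts, a ratio of summed RPKM of 0.584 (0.504 to 0.677), and from 2.87 RPKM in the untreated to 1.60 RPKM in the treated pool, a ratio of 0.556 (0.505 to 0.612). Over all 16958 regions the ratios were 0.668 (0.663 to 0.674) and 0.694 (0.690 to 0.698). The median log2 ratio of (RPKM + 1), a scale that understates changes of low regions, was -0.37 for mz embryos and -0.48 for the inducible pools, against -0.32 and -0.35 over all regions. Without the 3 regions of Hs6st1 the mz ratio was 0.647 and the inducible ratio 0.578.

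Few single regions passed a test of their own. For each region the read counts of knockout and control were set against the depths of their columns (exact binomial test, two-sided). Adjusted p-values are Benjamini-Hochberg values across the whole table of 16958 regions, with a threshold of 0.05. In the mz series 1 of the 70 regions (1.43%) was lower, against a background of 1.73% of all regions, and 0 were higher, against 0.0236%. At an unadjusted p under 0.05, 8 were lower (11.4%), against 11.9% of all regions, and 1, at Sos1, was higher (1.43%), against 0.708%. In the inducible series 7 of the 70 (10.0%) were lower, against a background of 6.37%, and 0 were higher, against 0.0767%. At an unadjusted p under 0.05, 23 were lower (32.9%), against 19.7% of all regions, and 0 were higher, against 0.879%. The mz share is near its background and the inducible share above it, a difference that was not tested.

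The depth limits what the mz test could call. A region needed 8 heterozygote reads to pass with 0 knockout reads, which 18 of the 70 had, and about 26 to pass at a ratio of 1 to 3, which 1 of the 70 had. Between the inducible pools 10 and 26 untreated reads were needed, which 51 and 19 of the 70 had. A region that was not called may still have changed.

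Without a test, 40 of the 70 (57.1%) had a mz ratio under 0.667, against 49.2% of all regions, and 13 (18.6%) a ratio over 1.5, against 20.3%. In the inducible series 42 (60.0%) had a ratio under 0.667, against 48.6%, and 5 (7.14%) over 1.5, against 8.57%. The RPKM was lower in both knockouts at 38 regions (54.3%), against 50.5% of all regions, and higher in both at 4 (5.71%), against 9.98%. In the authors' deposited table, whose classes rest on both series, 37 regions were Down, 24 Unchanged and 9 Up, against 41.5%, 41.6% and 16.9% of all regions.

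**Figure D1:**
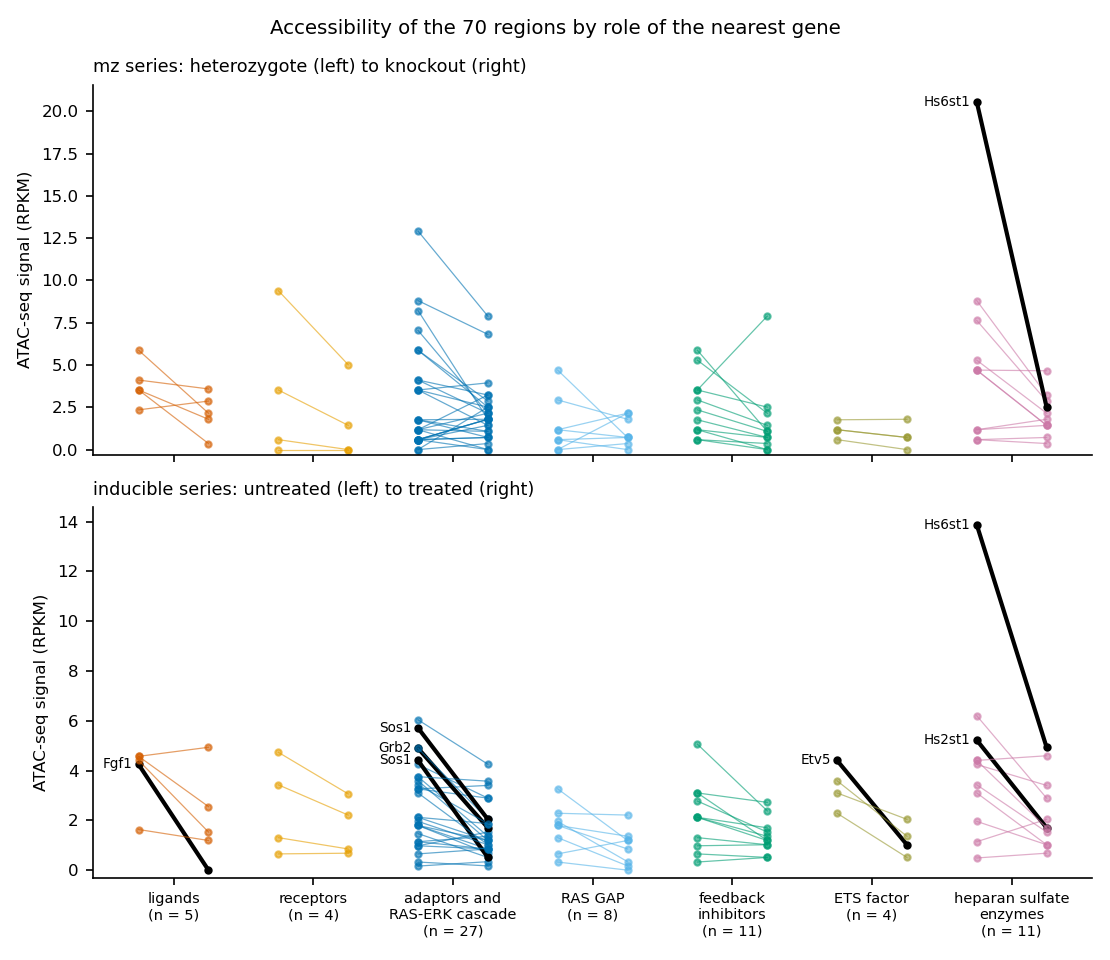
ATAC-seq signal in RPKM (linear axis) of the 70 regions, grouped by the role of the nearest gene, with 1 line per region from control to knockout in the mz (top) and inducible series (bottom). Black lines are regions past the exact binomial test, 1 at Hs6st1 in the mz series and 7 in the inducible series. The Hs6st1 region is the highest in both controls, at 20.6 and 13.9 RPKM.

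The 11 regions at 5 heparan sulfate genes had a mz ratio of 0.377 (0.271 to 0.521) and an inducible ratio of 0.527 (0.430 to 0.643). Much of this came from Hs6st1, without whose 3 regions the ratios were 0.562 (0.368 to 0.856) and 0.648 (0.501 to 0.835). Of the 11, 8 had lower RPKM in mz knockouts, a direction taken by 47 of the 70 (67.1%) and by 64.3% of all regions. In the treated pool 8 of 11 were lower, against 57 of the 70 (81.4%) and 74.4% of all regions. In the mz and inducible series 1 and 2 of the 11 passed the test as lower, against 1.73% and 6.37% of all regions. Hs6st1 encodes a sulfotransferase that adds sulfate to glucosamine residues of the chain. The region inside it, 8.98 kb after the start site (chromosome 1, 36077189 to 36077563), had 20.6 RPKM in heterozygotes against 2.51 RPKM in mz knockouts. The inducible pools had 13.9 RPKM untreated and 4.93 RPKM treated. Both knockout values lie far below both controls. The mz ratio was 0.122 (0.0458 to 0.279, exact binomial, adjusted p = 1.11e-05) and the inducible ratio 0.356 (0.225 to 0.548, exact binomial, adjusted p = 0.000233). This region had the strongest NR5A2 binding of the set, 18.0 RPKM, at percentile 99.5 of all regions, with the motif 99 bp from the ATAC-seq summit. It was the only region of the set past the test in both series. The share of all regions that did so was not computed. In the inducible series the call was lost when columns were scaled to a summed ratio of 1 (exact binomial, adjusted p = 0.0918), while the mz call held under that scaling (exact binomial, adjusted p = 0.00535).

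The other 2 regions of Hs6st1 lie before the gene and were lower in both knockouts too, without passing the test. At 13.4 kb upstream (chromosome 1, 36054732 to 36055225) the values were 5.29 and 2.15 RPKM in the mz and 4.41 and 1.70 RPKM in the inducible series. Summed over its 3 regions, Hs6st1 had a mz ratio of 0.200 (0.108 to 0.351) and an inducible ratio of 0.376 (0.265 to 0.527), with 52 and 17 reads and 133 and 48 reads behind them. Among the 28 genes, only Hs6st1, Ndst1, Ptpn11 and Spry4 had summed intervals below 1 in both series. How many of all genes with regions do so was not computed, so this is not shown to be particular to these 4. The ratios of all regions were also below 1, at 0.668 (mz) and 0.694 (inducible).

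Ndst1, the enzyme gene for N-deacetylation and N-sulfation of the growing chain, had a region 2.95 kb outside the gene (chromosome 18, 60751682 to 60752292) with 13.1 RPKM of CUT&RUN signal. It went from 8.81 to 3.23 RPKM in the mz series (exact binomial, adjusted p = 0.242) and from 6.20 to 2.89 RPKM in the inducible series (exact binomial, adjusted p = 0.0968). Its second region, inside the gene, had 4.70 and 1.43 RPKM, and 1.96 and 1.02 RPKM. All 4 control values of Ndst1 lie above the knockout values of the same region, as at 64.3% (mz) and 74.4% (inducible) of all regions.

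Hs2st1, which encodes the sulfotransferase acting on uronic acid residues, had 2 regions inside the gene that differed from each other. The first (chromosome 3, 144517570 to 144517767) had 7.64 and 2.87 RPKM in the mz series and fell from 5.22 to 1.70 RPKM in the treated pool, a ratio of 0.326 (0.143 to 0.679, exact binomial, adjusted p = 0.0245). The second (chromosome 3, 144536103 to 144536361), although bound more strongly (8.59 against 4.04 RPKM of CUT&RUN signal), had 4.70 and 4.66 RPKM in the mz and 4.41 and 4.59 RPKM in the inducible series. The call at the first did not survive scaling to the median (exact binomial, adjusted p = 0.202).

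Regions of Ext1, a gene of the chain polymerase, and of Glce, the epimerase gene, were low in the mz series, at 0.359 to 1.79 RPKM. The Ext1 region inside the gene (chromosome 15, 53150694 to 53151028) had 4.24 RPKM untreated and 3.40 RPKM treated. The Glce region 13.8 kb outside (chromosome 9, 62043216 to 62043625) had 3.10 and 1.02 RPKM in these pools. None of the 4 regions of these genes passed in either series.

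**Figure D2:**
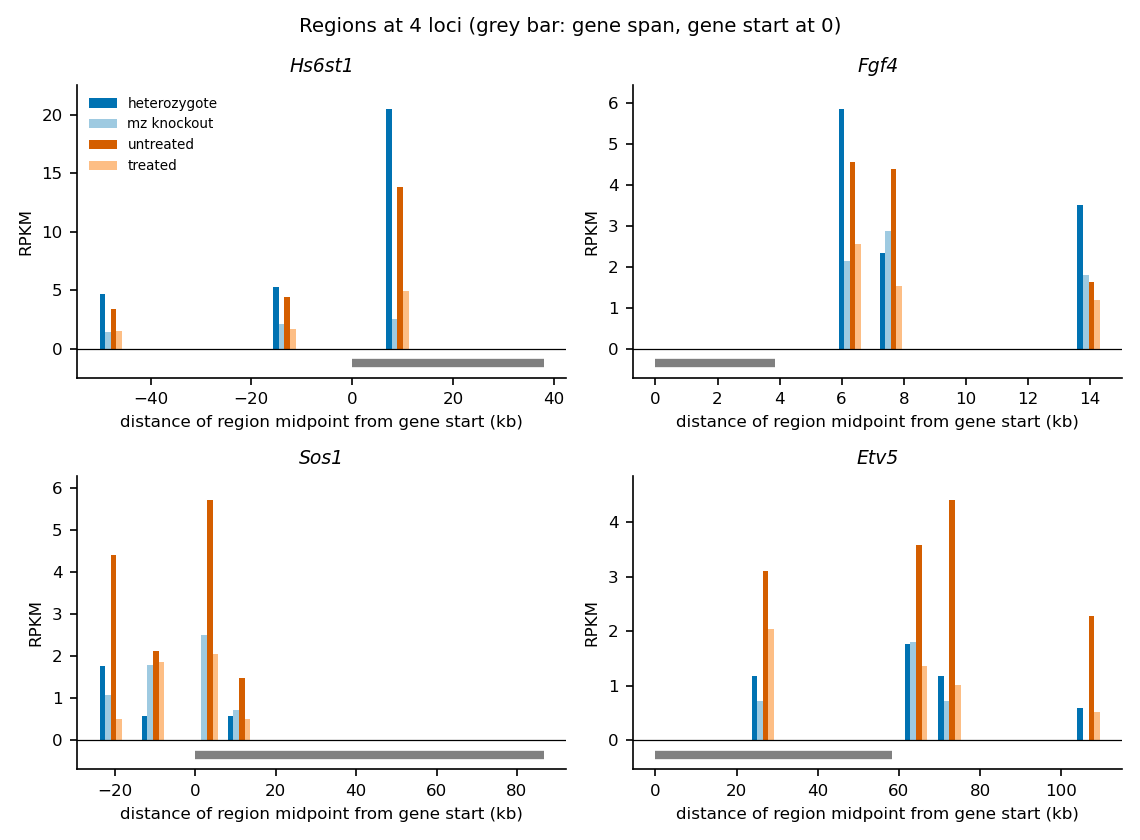
RPKM (linear axis) of the regions at Hs6st1, Fgf4, Sos1 and Etv5 in the 4 columns, against the distance of the region midpoint from the gene start in kb. The grey bar marks the gene span. At Hs6st1 all 3 regions are lower in both knockouts, and at Sos1 and Etv5 the untreated pool stands well above the heterozygotes.

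The ligand genes held 5 regions, all accessible, with a mz ratio of 0.555 (0.327 to 0.939) and an inducible ratio of 0.526 (0.379 to 0.723). Fgf4 had 3 regions, all past the end of the gene. The closest, 2.40 kb from it (chromosome 7, 144867259 to 144868038), had 5.87 RPKM in heterozygotes, 2.15 RPKM in mz knockouts, 4.57 RPKM untreated and 2.55 RPKM treated. Its neighbour at 3.73 kb (chromosome 7, 144868587 to 144869354) had 2.35 and 2.87 RPKM in the mz series, and 4.41 and 1.53 RPKM in the inducible series (exact binomial, adjusted p = 0.0584). These 2 regions were bound at percentiles 94.1 and 91.0 of CUT&RUN signal. The third, 10.1 kb away, had 3.52, 1.79, 1.63 and 1.19 RPKM. No Fgf4 region passed the test, and the 3 together had a mz ratio of 0.580 (0.293 to 1.14) and an inducible ratio of 0.497 (0.313 to 0.774).

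Fgf1, the gene of a ligand for all FGF receptors, had 2 regions, both of which also lie inside the span of Arhgap26, so that neither gene is nearer. The later of them on the chromosome also lies inside the span of a further gene, Gm5820. The first (chromosome 18, 38849547 to 38849895) fell from 4.24 RPKM, 26 reads, in the untreated to 0 reads in the treated pool (exact binomial, adjusted p = 5.83e-05). Taken against 3 reads, the limit that a count of 0 allows, it was at least 8.31-fold lower. The exact interval of the ratio, which also takes in the counting error of the 26 reads, reached up to 0.159. In the mz series it had 3.52 and 0.359 RPKM, 6 reads against 1 (exact binomial, adjusted p = 0.202). The second (chromosome 18, 38920892 to 38921081) had 4.11 and 3.59 RPKM in the mz series and 4.57 and 4.93 RPKM in the inducible series. It also had the weakest binding of the set, 1.10 RPKM, while the first had 4.78 RPKM. The inducible loss at the first region was the only call of the set that held with columns scaled to a summed ratio of 1 in that series (exact binomial, adjusted p = 0.00752).

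Receptor genes had 4 regions, none of which passed. The region inside Fgfr2 (chromosome 7, 130194407 to 130194755), 72.2 kb after the start site, was the most accessible of them, with 9.40 and 5.02 RPKM in the mz series, and 4.73 and 3.06 RPKM in the inducible series. The second Fgfr2 region, 35.1 kb upstream, had 3.52 and 1.43 RPKM, and 3.43 and 2.21 RPKM. All 4 pairs of Fgfr2 values were thus lower in the knockout column, as were 64.3% (mz) and 74.4% (inducible) of all regions. The Fgfr1 region, 24.1 kb outside the gene, had at most 0.681 RPKM in any column, and the Fgfr4 region, inside the gene, 0 reads in both mz columns and 1.31 and 0.851 RPKM in the inducible series.

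The adaptors and the RAS and ERK cascade held 27 regions at 10 genes, with a mz ratio of 0.716 (0.567 to 0.904) and an inducible ratio of 0.577 (0.492 to 0.676). In mz knockouts 15 were lower and 12 higher, against 64.3% and 32% of all regions, and 0 passed. In the treated pool 22 were lower and 5 higher, against 74.4% and 25.2% of all regions. There 3 passed as lower, at Sos1 (2 regions) and Grb2, against 6.37% of all regions.

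Sos1 encodes an exchange factor that loads RAS with GTP. Its region 21.0 kb upstream (chromosome 17, 80501301 to 80501636) fell from 4.41 to 0.510 RPKM in the treated pool, a ratio of 0.116 (0.0225 to 0.376, exact binomial, adjusted p = 0.00132), a call that was kept after scaling to the median (exact binomial, adjusted p = 0.0210). The region inside the gene 2.90 kb after the start site (chromosome 17, 80477409 to 80477695) fell from 5.71 to 2.04 RPKM, a ratio of 0.357 (0.169 to 0.705, exact binomial, adjusted p = 0.0280). That call did not survive scaling to the median (exact binomial, adjusted p = 0.243). In the mz series neither region passed. The upstream region had 1.76 and 1.08 RPKM, and the region inside the gene had 0 reads in heterozygotes and 2.51 RPKM, 7 reads, in knockouts. All 4 Sos1 regions were lower in the treated pool and 1 of 4 in mz knockouts, against 74.4% and 64.3% of all regions. The summed ratio was 0.360 (0.227 to 0.555) in the inducible and 2.08 (0.735 to 7.20) in the mz series, the latter from 5 and 17 reads.

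The difference between the series was tested per region on the 4 read counts (exact conditional test, noncentral hypergeometric). None of the 70 regions passed after adjustment, against 0.0177% of all regions, and 4 (5.71%) had an unadjusted p under 0.05, against 4.41% of all regions. The Sos1 region inside the gene had the smallest (adjusted p = 0.887, unadjusted p = 0.00262, exact test). The others were 1 region each of Grb2, Hs6st1 and Nf1 (exact test, unadjusted p = 0.0238, 0.0241 and 0.0471). At Grb2 it was the region at chromosome 11, 115647345 to 115647597, and at Hs6st1 the one inside the gene. The Nf1 region (chromosome 11, 79420915 to 79421400) had 0 heterozygote and 6 mz knockout reads.

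Grb2, the adaptor that brings SOS proteins to the receptor, had 5 regions with unlike values. The start sites listed for Grb2 lie inside its span, which reaches farther upstream, to 115708597. The region inside the gene 11.2 kb after the nearest listed start site (chromosome 11, 115688207 to 115688491) had 3.52 and 3.95 RPKM in the mz series. In the treated pool it fell from 4.90 to 1.70 RPKM (exact binomial, adjusted p = 0.0424). That call did not survive scaling to the median (exact binomial, adjusted p = 0.270). Another region inside the gene (chromosome 11, 115647345 to 115647597) went from 8.22 to 1.79 RPKM in the mz series (exact binomial, adjusted p = 0.100), but 3.26 and 2.89 RPKM in the inducible series. The remaining 3, all classed as not accessible, had 0.587 to 1.17 RPKM in heterozygotes and 1.79 to 3.23 RPKM in mz knockouts. These 3 had 0.979 to 4.24 RPKM untreated and 0.851 to 2.89 RPKM treated, with 2 of them lower after treatment. The 5 regions together had a mz ratio of 0.879 (0.513 to 1.53) and an inducible ratio of 0.650 (0.460 to 0.912).

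Docking proteins bring further partners to the receptor. Frs2, the docking protein of FGF receptors, had 5 regions, of which the most accessible, 25.5 kb upstream (chromosome 10, 117173866 to 117174059), had 5.87 and 2.87 RPKM in the mz series and 3.26 and 3.40 RPKM in the inducible series. Gab1, another docking protein gene, had 2 accessible regions. The one 31.1 kb upstream (chromosome 8, 80911509 to 80911706), with 10.5 RPKM of CUT&RUN signal, had 5.87 and 2.51 RPKM, and 3.59 and 1.19 RPKM (exact binomial, adjusted p = 0.0874, in the second of these). Summed, Gab1 had an inducible ratio of 0.348 (0.180 to 0.635) and a mz ratio of 0.575 (0.272 to 1.21).

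Ptpn11 encodes the phosphatase SHP2, which promotes RAS activation. Its region inside the gene (chromosome 5, 121186362 to 121186852) had 7.05 RPKM in heterozygotes, 2.15 RPKM in mz knockouts, 3.43 RPKM untreated and 1.87 RPKM treated. The one 6.03 kb upstream (chromosome 5, 121197319 to 121197536), among the 5 most strongly bound of the set at 11.3 RPKM, had 3.52, 2.51, 4.90 and 2.04 RPKM. Neither passed in either series, although all 4 comparisons were lower in the knockout column and the summed ratios were 0.441 (0.199 to 0.952) and 0.470 (0.274 to 0.783). That direction was taken by 64.3% (mz) and 74.4% (inducible) of all regions.

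Further down the cascade, Map2k1, the MEK1 kinase gene, had 3 regions, none of which passed in either series. Its strongest region (chromosome 9, 64198857 to 64199271) had 12.9 RPKM in heterozygotes, 7.89 RPKM in mz knockouts, 6.04 RPKM untreated and 4.25 RPKM treated, next to Hs6st1 the highest heterozygote value of the set. The ratios were 0.611 and 0.704, close to those of all regions, at percentile 97.3 of CUT&RUN signal and with an unmoved binding summit 10 bp from the ATAC-seq summit. A neighbour 651 bp away, whose reads may overlap with it, had 8.81 and 6.81 RPKM, and 3.75 and 3.57 RPKM.

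The RAS gene Hras had 1 region, 6.20 kb outside the gene (chromosome 7, 141183466 to 141183996), with 1.17 and 0 RPKM in the mz series and 3.10 and 1.02 RPKM in the inducible series (exact binomial, adjusted p = 0.123). The more accessible region of the kinase gene Braf (chromosome 6, 39705848 to 39706281) had 4.11 and 2.15 RPKM, and 2.12 and 1.19 RPKM. For Mapk3, the ERK1 gene, the region inside the gene had 1.76 and 1.79 RPKM, and 1.14 and 0.851 RPKM. Sos2, a second exchange factor gene, had 2 regions, not accessible by the authors' class, at 0.587 to 1.79 RPKM in the mz series and a summed inducible ratio of 1.04 (0.445 to 2.44).

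Nf1 encodes neurofibromin, which returns RAS to its inactive form, and held 8 regions, more than any other gene of the set. In the mz series 4 were lower and 4 higher, and in the inducible series 7 of 8 were lower, against 64.3% and 74.4% of all regions lower. The summed ratios were 0.771 (0.405 to 1.49) and 0.547 (0.369 to 0.800). None passed. The most accessible, 20.1 kb outside the gene (chromosome 11, 79319300 to 79319676), had 4.70 and 0.717 RPKM in the mz series (exact binomial, adjusted p = 0.154) and 3.26 and 1.19 RPKM in the inducible series. A region inside the gene (chromosome 11, 79558274 to 79558681) had the second strongest binding of the set, 14.1 RPKM, and yet is classed as not accessible, with 0 and 0.359 RPKM, and 1.96 and 0.340 RPKM. Its class of change in the authors' deposited table is Up, with 0 and 1 reads behind the mz values.

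Feedback inhibitor genes held 11 regions at 6 genes, 8 of them not accessible by the authors' class, and had the lowest median CUT&RUN signal of the 7 roles, 2.22 RPKM. Their ratios were 0.623 (0.412 to 0.943) and 0.640 (0.486 to 0.839). In mz knockouts 10 of 11 were lower, against 64.3% of all regions, and in the treated pool 9 of 11, against 74.4%. The test was passed by 0 of them in either series, against 1.73% and 6.37% of all regions lower. Spry4, a Sprouty inhibitor gene, had 1 region, 18.3 kb outside the gene (chromosome 18, 38567879 to 38568066), with 5.87 and 1.08 RPKM in the mz series (exact binomial, adjusted p = 0.146) and 3.10 and 1.19 RPKM in the inducible series (exact binomial, adjusted p = 0.184).

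Spry2, of the same family, gave the 1 exception in mz knockouts. Its region 4.37 kb upstream (chromosome 14, 105900903 to 105901481) had 3.52 RPKM, 6 reads, in heterozygotes and 7.89 RPKM, 22 reads, in knockouts, a ratio of 2.24 (0.880 to 6.75, exact binomial, adjusted p = 0.471). The inducible pools had 2.12 and 1.70 RPKM.

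Regions near Spred1 and Spred2, genes of inhibitors that act between RAS and RAF, were lower at all 6 positions in mz knockouts, against 64.3% of all regions. Some rested on very few reads, heterozygote against knockout. These were 1 against 0 at 24.0 kb upstream of Spred1, 2 against 0 inside Spred1 and 2 against 2 at a region inside Spred2. At Spred1 the most accessible (chromosome 2, 117119301 to 117119833) had 5.29 and 2.15 RPKM, and 3.10 and 2.72 RPKM in the inducible series. The Spred2 region 3.72 kb upstream (chromosome 11, 19920617 to 19920830) had 2.35 and 1.08 RPKM, and 2.77 and 1.53 RPKM. Dual-specificity phosphatases remove phosphate from ERK and related kinases. The Dusp5 region, 20.1 kb upstream (chromosome 19, 53508854 to 53509167), had 3.52 and 2.51 RPKM in the mz and 5.06 and 2.38 RPKM in the inducible series, and the Dusp4 region 1.76 and 0.717 RPKM, and 2.12 and 1.36 RPKM.

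Of the ETS factor genes induced by FGF signalling, Etv5 alone had regions, 4 in number. All 4 had lower RPKM after treatment, with a summed ratio of 0.369 (0.233 to 0.569), and 3 of 4 in mz knockouts, with a ratio of 0.687 (0.235 to 2.05) from 8 and 9 reads. Of all regions, 74.4% were lower after treatment and 64.3% in mz knockouts. The region 14.2 kb past the end of the gene (chromosome 16, 22366959 to 22367279) fell from 4.41 to 1.02 RPKM in the treated pool, a ratio of 0.232 (0.0782 to 0.573, exact binomial, adjusted p = 0.0136), and had 1.17 and 0.717 RPKM, 2 reads in each column, in the mz series. That call did not survive scaling to the median (exact binomial, adjusted p = 0.130). The region 5.94 kb past the gene end (chromosome 16, 22375113 to 22375630) had 3.59 and 1.36 RPKM in the inducible series, and the one inside the gene 3.10 and 2.04 RPKM.

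**Figure D3:**
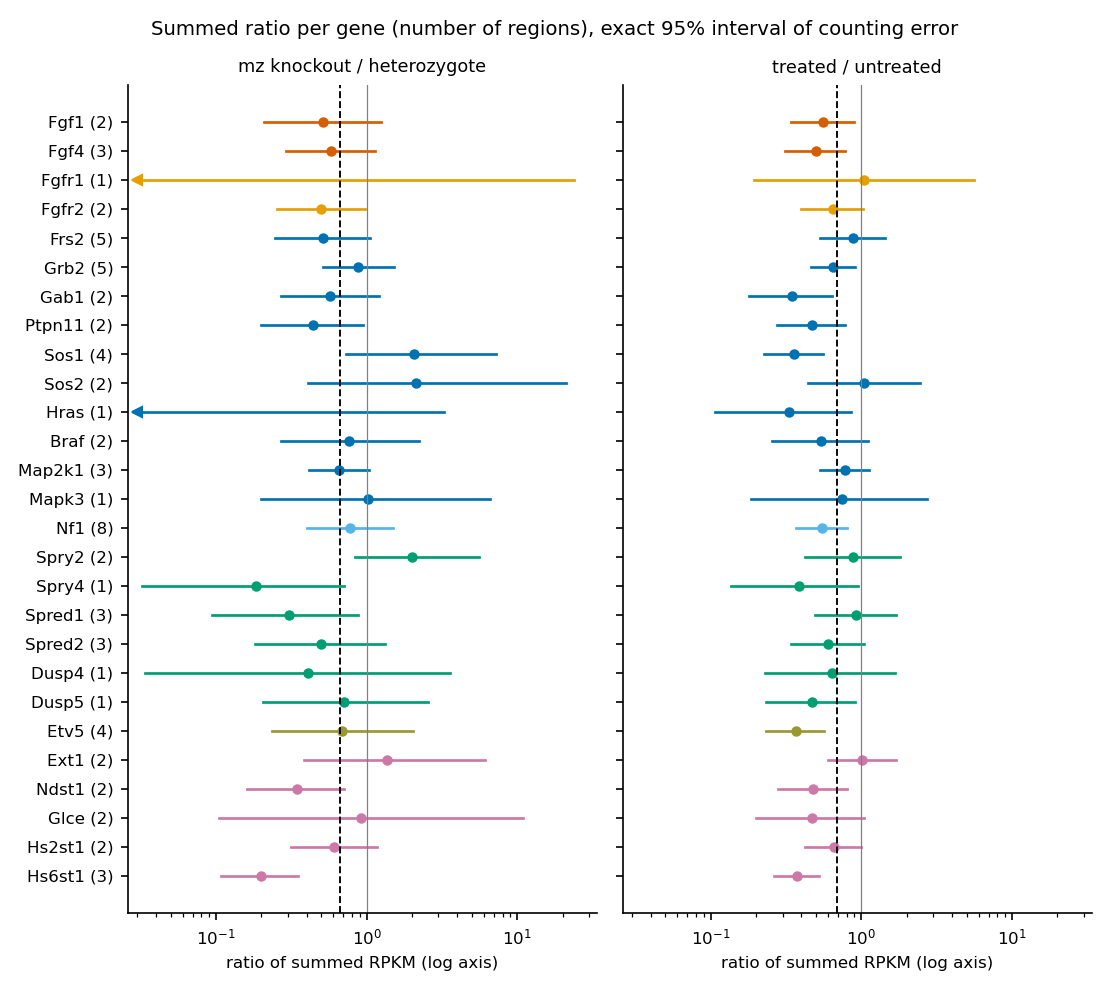
Ratio of RPKM summed over the regions of each gene (log axis) in the mz (left) and inducible series (right), with exact 95% intervals of counting error. The number of regions is in parentheses, the dashed line is the ratio of all regions (0.668 and 0.694), an arrowhead marks 0 knockout reads, and Fgfr4 is left out for its 0 mz reads. Hs6st1, at 0.200 and 0.376, has intervals below the dashed line in both panels.

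Over genes, the inducible intervals were the narrower. The summed mz ratio was under 1 for 22 of the 28 genes. The interval lay below 1 for 6 of them (21.4%), against 16.4% of all 8063 genes with a region within 50 kb, and above 1 for 0, against 0.533%. In the inducible series the ratio was under 1 for 25 genes, with 13 intervals below 1 (46.4%), against 27.1% of all genes, and 0 above, against 0.558%. Measured against the ratio of all regions in place of 1, 1 gene (3.57%) had a lower interval in the mz series, against 4.03% of all genes, and 4 (14.3%) in the inducible series, against 7.19%. These intervals are not adjusted for the number of genes. How many of all genes had a summed ratio under 1 was not computed. The 22 and 25 genes are thus not shown to be particular to this set, and the ratios of all regions were 0.668 (mz) and 0.694 (inducible).

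The better covered regions were compared across the series. Of 12 regions with 10 or more reads in both controls, 8 (66.7%) had ratios under 0.667 in both series, against 37% of the 3269 regions of the table with as many reads, and 0 had ratios over 1.5 in both, also 0% of all. The 8 were at Hs6st1, Hs2st1, Ndst1, Fgf4, Fgfr2, Gab1, Ptpn11 and Spry4, and the other 4 at Map2k1 (2 regions), Frs2 and Grb2. Choosing regions by high control reads lowers the ratio by itself, in both counts. Over the 12 the mz ratio was 0.382 (0.300 to 0.486), against 0.580 over the 3269, and the inducible ratio 0.549 (0.460 to 0.654), against 0.721.

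**Figure D4:**
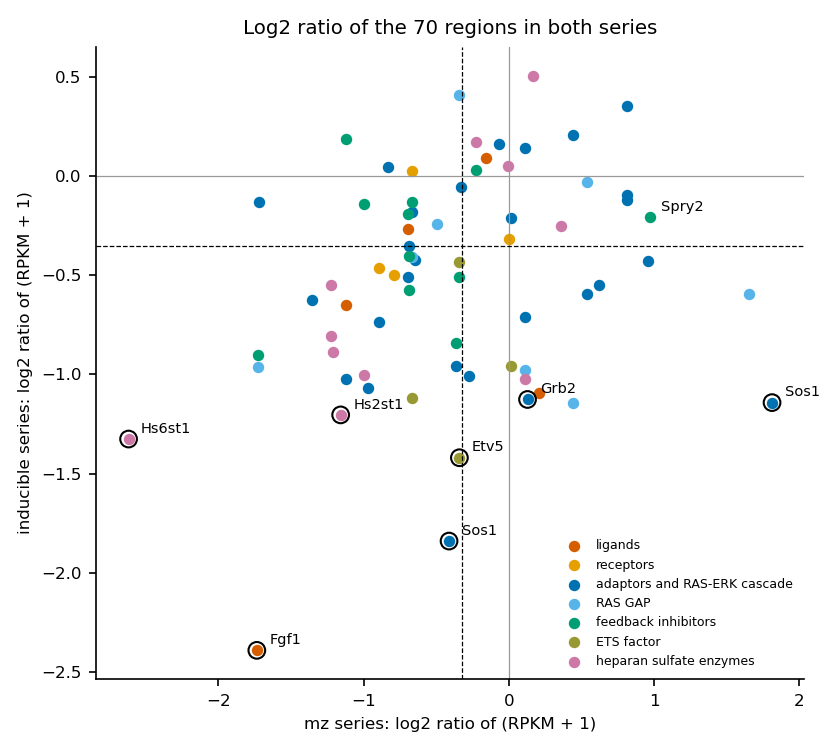
Log2 ratio of (RPKM + 1), knockout over control, of the 70 regions in the mz (horizontal) and inducible series (vertical), coloured by role. Dashed lines are the medians of all regions (-0.32 and -0.35), and rings mark the 7 regions past the test in either series. The ringed Hs6st1, Hs2st1 and Fgf1 regions are low on both axes, while 1 ringed Sos1 region is high on the mz axis and low on the inducible one.

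Across the 70 regions the log2 ratios of the 2 series had a Spearman rho of 0.243, against 0.208 over all regions, whereas the heterozygote and untreated signals had a rho of 0.643. Points share libraries and depth, and most mz values rest on few reads. Regions of the set bound at or above the median CUT&RUN signal of all regions had an inducible ratio of 0.538 (0.475 to 0.608, 37 regions), and those below it 0.587 (0.503 to 0.683, 33 regions). In the mz series the ratios were 0.577 (0.479 to 0.695) and 0.597 (0.466 to 0.765). The intervals overlap widely in both series. Over all regions the same split gave 0.646 (0.639 to 0.653) and 0.710 (0.700 to 0.721) in mz embryos, and 0.672 (0.667 to 0.677) and 0.730 (0.723 to 0.737) in the inducible pools, where the intervals stood apart. Accessible regions of the set had ratios of 0.558 (0.471 to 0.661) and 0.535 (0.477 to 0.599), and not accessible regions 0.679 (0.497 to 0.930) and 0.613 (0.512 to 0.733), in the mz and inducible series. Over the whole table, accessible regions had 0.650 and 0.692, and not accessible regions 0.734 and 0.698. Inside genes the ratios of the set were 0.566 and 0.584, and outside them 0.611 and 0.526. For all regions these were 0.664 and 0.687 inside genes, and 0.673 and 0.700 outside them.

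A second list held 70 other genes of the pathway, such as further ligands, kinases, glypicans and sulfatases, of which 34 had regions, 69 in all. Their mz ratio was 0.698 (0.597 to 0.817) and their inducible ratio 0.660 (0.596 to 0.730), against 0.584 and 0.556 for the 70 regions above, a difference that was not tested. In the mz series 1 of the 69 was lower, near the RAF kinase gene Araf on chromosome X, with 37 reads in heterozygotes and 18 in knockouts, and 0 were higher. Between the inducible pools 2 were lower, near the glypican gene Gpc5 and the FGF co-receptor gene Klb. In these pools 1 was higher, near Rps6ka1, a kinase gene downstream of ERK, with 4 reads untreated and 19 treated. Over all regions 1.73% were lower and 0.0236% higher in the mz series, and 6.37% and 0.0767% in the inducible series.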

How the data were processed

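All values come from 1 deposited table, whose regions were defined by NR5A2 binding in published CUT&RUN data. ATAC-seq and CUT&RUN coverage are in RPKM per the file headers, as computed by the authors. The submitters' processing notes name cutadapt, Bowtie2, MACS2 and the mm10 build, without settings. Insertion shifting, duplicate removal and the merging of embryos: not given in the sources used here. If duplicates were kept, the intervals are too narrow. The authors' deposited ratios (the values' unit is a ratio of knockout over control, each plus 0.01 RPKM) matched the RPKM columns within 1e-06. Summit positions were deposited as genome positions, and other columns as the authors' classes.

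Every ATAC-seq value was a whole multiple of 1 step per column, within 1e-05 of a step, whatever the region's length, so reads were recovered by division. The designs fixed for values per embryo could not be used, since the columns are merged. Exact binomial tests, Clopper-Pearson intervals conditional on the sum of reads, and the exact test between series were computed with scipy 1.17.1 in Python 3.11.15, over all 16958 regions, and checked on simulated data. Log2 ratios used a pseudocount of 1 RPKM.

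Regions were assigned by midpoint to gene spans from RefSeq (GRCm38.p6, which mm10 represents), and start sites and strands came from a RefSeq promoter table. Coordinates are as the table gives them. The regions named are the most accessible of a gene in the 2 controls, those past a test, those under 0.667 in both series with 10 or more control reads, and the 5 with the strongest CUT&RUN signal. The members, gene lists and tests were chosen with earlier results of these data known. Alternatives were column scalings, a read minimum, a distance of 10 kb and other pseudocounts.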

Additional observations from a re-analysis of the deposited data

How the results depend on the processing

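The mz count of 1 lower region, at Hs6st1, held with columns scaled to a median log2 ratio of 0 (0.307% of all regions called) or to a summed ratio of 1 (0.0826%). It also held with a minimum of 10 reads (1 of 31 regions, against 5.90% of all 7445), within 10 kb of the genes (50 regions) and without the 2 regions shared with Arhgap26, the last an alternative added after the data were seen. The inducible count of 7 became 3 with columns scaled to a median log2 ratio of 0 (1.17% of all regions) and 1 with columns scaled to a summed ratio of 1 (0.460%). It was 7 of 61 with the read minimum (against 7.91% of all 14509), 5 within 10 kb and 6 without the regions shared with Arhgap26. The first scaling kept Fgf1, Hs6st1 and the upstream Sos1 region, and the second Fgf1. The latter changed the side of 1 of 2 uncalled ratios, to 1.07 for the upstream Ptpn11 region in the mz series and 1.02 for the strongest Map2k1 region in the inducible series. The ratios of summed RPKM of the whole set stayed within their intervals, from 0.558 to 0.647 in the mz and from 0.535 to 0.579 in the inducible series. The median log2 ratio was -0.83 in the mz series with the read minimum, against -0.50 over all regions, and -0.72 in the inducible series with a pseudocount of 0.1 RPKM, against -0.53. Without Hs6st1, also added after the data were seen, the heparan sulfate regions moved to 0.562 and 0.648. The mz ratios of the 5 regions with 0 heterozygote reads could not be given as numbers. Those with knockout reads, at Frs2, Sos1 and Nf1, were counted as over 1.5. The Fgfr4 region, with 0 reads in both mz columns, was not. No paired analysis was possible because each group is 1 merged column, and no replicate could be left out.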
